A study of Mus musculus with 96 samples.

Results

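GATA6 binding was compared between 8 h and day 1 of doxycycline (Dox), with 16 h as the step between, in 6 chromatin immunoprecipitation sequencing (ChIP-seq) libraries, 2 at each time, of the 96 samples in the series. The libraries were chosen by their antibody and time labels, and the comparison covered all 42403 GATA6 binding regions of the deposited table. All 3 groups were KH2 mouse embryonic stem (ES) cells of C57BL/6 x 129/Sv strain, carrying a Dox-inducible cassette that expresses HA-tagged GATA6, grown with LIF on feeders that were adsorbed before fixation. All received 1 µg/mL Dox, for 8 h, 16 h or 24 h (day 1), so the groups differ in the duration of Dox and none is untreated. The cells came from selected transgenic clones, and the clone behind each library is not given in the sources used here. Input chromatin, sequenced without antibody, has 2 libraries at each of the same times.

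GATA6 is a zinc finger transcription factor that binds sites built on the letters GATA and drives ES cells and the inner cell mass towards primitive endoderm (PrE), the lineage of the yolk sac endoderm. It is described as a pioneer factor, able to engage sites in closed chromatin. The pluripotency transcription factors (PTFs) OCT4, SOX2 and ESRRB occupy the enhancers of ES cells before induction. SOX17 is an endoderm SOX factor downstream of GATA6, and OCT4 can pair with either SOX2 or SOX17 on composite DNA elements.

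GATA6 binding fell at some regions and rose at others, while the median over all regions changed little. The median level over regions was 1.49 RPM (reads scaled to the total reads of the library) at 8 h, 1.45 at 16 h and 1.29 at day 1, and the median difference of log2(RPM + 0.168), the pseudocount in RPM, was -0.04. Yet 8791 regions (20.7%) were at least 2-fold lower at day 1 and 5413 (12.8%) were at least 2-fold higher. Of regions with PTF peaks before Dox, 52.2% were called lower in the test described below, against 21.4% of all tested regions. Of regions with SOX17 peaks and PTF peaks only after Dox, 37.5% were called higher, against 10.4% of all tested regions. Fewer regions were called when a library of 8 h or day 1 was left out.

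The sequences show the best GATA6 motif (13 bases, in capitals) with 40 bases on each side at 3 of the regions with the largest rises and 4 of those with the largest falls, named by the nearest protein-coding gene. They were read 5′ to 3′ from assembly GRCm38.p6, the assembly that mm10 names, on the strand of the motif. They are shown so that rising and falling sites can be compared letter by letter. The motif near Yipf7 lies 528 bases from the GATA6 summit, and the other printed motifs lie 12 to 130 bases from it. Whether the printed motif is the bound one was not tested.
Rise near Pja1, chrX:99544489-99544581, plus strand: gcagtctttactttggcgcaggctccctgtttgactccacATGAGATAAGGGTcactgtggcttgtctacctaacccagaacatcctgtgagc
Rise near Akr1c19, chr13:4233599-4233691, plus strand: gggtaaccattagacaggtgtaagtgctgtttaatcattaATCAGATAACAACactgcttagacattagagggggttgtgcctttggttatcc
Rise near Arhgap29, chr3:121940249-121940341, plus strand: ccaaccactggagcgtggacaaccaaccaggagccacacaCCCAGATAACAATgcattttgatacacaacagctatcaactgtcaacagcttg
Fall near Rnls, chr19:33382430-33382522, minus strand: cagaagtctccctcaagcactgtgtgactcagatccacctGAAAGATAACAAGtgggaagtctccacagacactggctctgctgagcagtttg
Fall near Foxc1, chr13:31729086-31729178, minus strand: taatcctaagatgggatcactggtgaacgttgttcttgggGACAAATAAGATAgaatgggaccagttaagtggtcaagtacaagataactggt
Fall near Kcnb2, chr1:15131528-15131620, plus strand: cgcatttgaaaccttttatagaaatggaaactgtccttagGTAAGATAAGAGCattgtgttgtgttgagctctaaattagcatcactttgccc
Fall near Yipf7, chr5:69489718-69489810, plus strand: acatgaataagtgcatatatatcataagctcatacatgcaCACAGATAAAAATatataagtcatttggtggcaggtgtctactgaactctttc
Of the 6 largest rises, 5 best motifs held the letters AGATAA, and of the 6 largest falls, 4 did, with median motif scores of 10.9 and 10.5. The share of best motifs with these letters over all regions was not taken. Shares given further on are for other words anywhere within 200 bases centred on the summit, so these counts cannot be set against them. A region of the Sox7 locus, where a GATA6 motif lies close to an OCT4:SOX2 motif, is printed with its values further on.

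Each deposited GATA6 value of these 3 times is the mean of 2 pooled libraries, and 42234 regions could be split exactly into the whole reads of both GATA6 libraries at all 3 times. Here the libraries of a time are called the deeper and the shallower, because their replicate numbers are unknown. They held 69435058 and 11458899 reads at 8 h, 8725784 and 8535476 at 16 h, and 22475209 and 14527084 at day 1, with a median of 11 to 101 reads per region. Regions took 9.31% to 12.9% of the reads of GATA6 libraries and 2.11% to 2.78% of the reads of inputs. As a mean of the libraries of a time, the GATA6 share was 12.1% at 8 h, 11.6% at 16 h and 9.45% at day 1. The methods describe separate chromatin preparations as replicates for most conditions. Neither they nor the labels say whether these came from separate cultures, so the p-values measure the spread between these libraries.

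The pair at 16 h stood apart from each other. Across regions, the deeper 16 h library correlated with the deeper 8 h library at r = 0.89 and with its own partner at 0.87, whereas the shallower 16 h library correlated with the deeper day 1 library at 0.91 and with the deeper 8 h library at 0.78. The pairs at 8 h and day 1 correlated at 0.96 and 0.90. The day 1 libraries differed too, with r = 0.79 for the deeper and 0.64 for the shallower against the deeper 8 h library. The deeper day 1 library was slightly closer to the shallower 16 h library than to its own partner. All points share the regions and their widths, so these values only describe the libraries. The shallower 16 h library thus lay nearer to day 1 and the deeper nearer to 8 h.

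**Figure D1:**
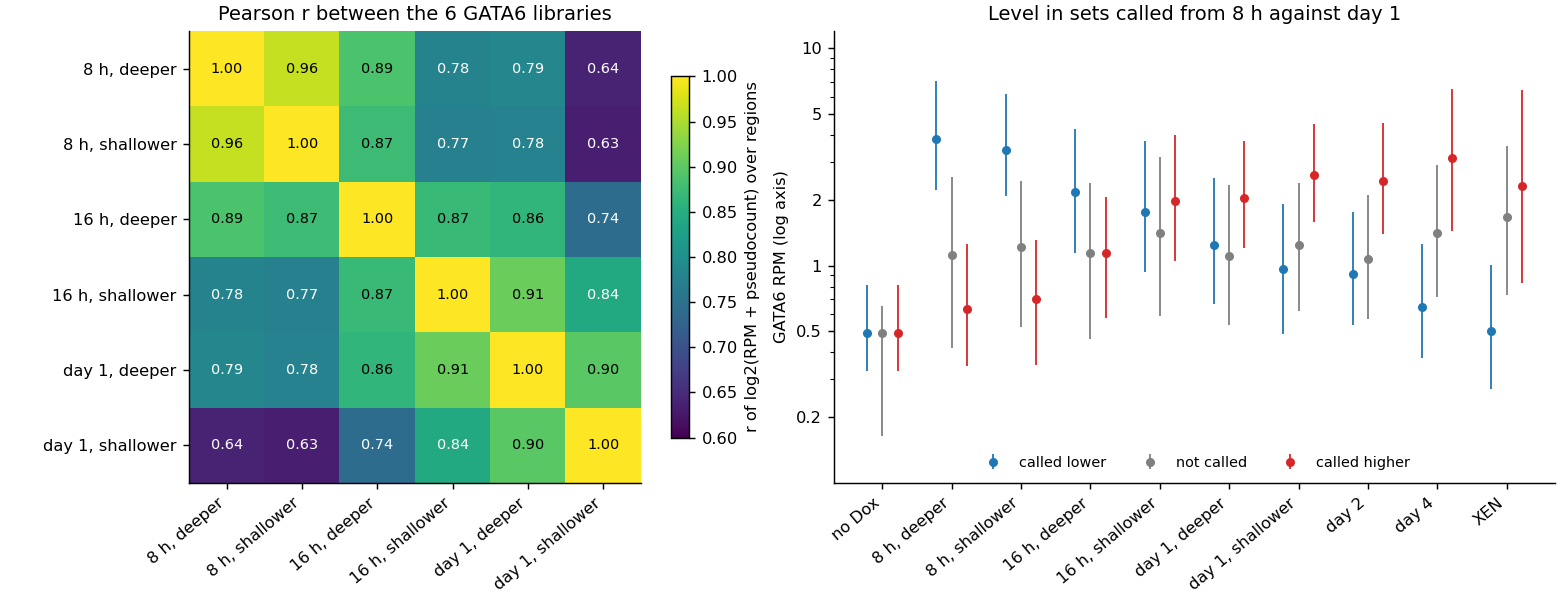
Left, Pearson r of log2(RPM + pseudocount) over regions for each pair of the 6 GATA6 libraries, from 0.63 to 0.96. Right, median (point) and quartiles (bar) of GATA6 RPM on a log axis for regions called lower (9057), higher (4380) or neither (28797) between 8 h and day 1, in each library, and, as deposited columns, in cells without Dox (a single library), in XEN cells and after longer Dox (day 2 and day 4). The called sets cross: the falls lie above the rises at 8 h (3.60 and 0.65 RPM in pooled values), close to them at 16 h and below them at day 1 (1.12 and 2.36), day 2 and day 4.

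Over the libraries, the limma test called 9057 of 42234 regions (21.4%) lower at day 1 and 4380 (10.4%) higher, at a Benjamini-Hochberg adjusted p under 0.05. The groups did not overlap, with both day 1 libraries below both 8 h libraries, at 16966 regions (40.2% of 42238), and with both above at 13736 (32.5%). Called falls had a median log2 change of -1.47 and called rises of 1.45, with a median standard error of 0.40 over all regions. The smallest called changes were -0.63 and 0.75, and 91.2% of the called falls and 96.4% of the called rises passed 2-fold in the pooled values. The calls depended on single libraries. The count of falls was 2996 without the deeper 8 h library, 4283 without the shallower 8 h library and 2595 without the shallower day 1 library. The count of rises was 1421, 1711 and 665 in those fits, and it was 6585 without the deeper 16 h library and 6487 without the shallower 16 h library. Library medians were lower by 0.18 on the log2 scale at day 1 than at 8 h. With each library centred on its median, the calls were 7285 lower and 6615 higher, so that the share of rises among calls moved from 32.6% to 47.6%.

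The inputs were read as the same comparison without antibody. Their median change was 0.06, and 464 regions were at least 2-fold lower and 1539 at least 2-fold higher, or 1.09% and 3.63% of regions. limma called no input region in either direction (0% lower and 0% higher), with 1169 lower and 2850 higher at an unadjusted p under 0.05. The input medians are 3 to 10 reads per region, and at this depth input changes past 2-fold were not called either. The lack of input calls therefore does not show that input was unchanged.

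**Figure D2:**
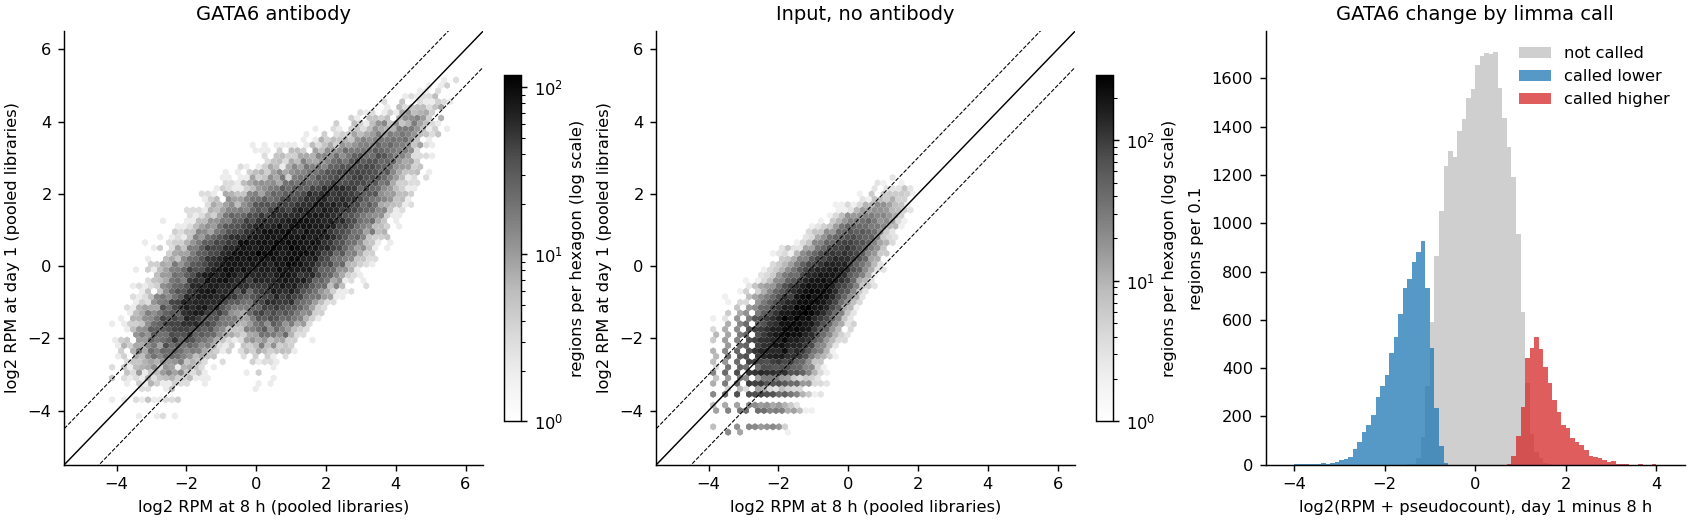
Left and middle, log2 RPM at day 1 against 8 h for the 42403 regions in pooled GATA6 and input columns, with shading for regions per hexagon, a solid line of equality and dashed lines at 2-fold. Right, histogram of the GATA6 change by limma call. GATA6 spreads past the dashed lines on both sides (8791 lower, 5413 higher), and input much less (464 and 1539).

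At 16 h the changes were under way. The regions called lower had medians of 3.82 and 3.40 RPM in the 8 h libraries, 2.18 and 1.76 at 16 h, and 1.246 and 0.96 at day 1. The regions called higher had medians of 0.63 and 0.70 RPM at 8 h, 1.15 and 1.99 at 16 h, and 2.05 and 2.62 at day 1. The 16 h value lay between those of 8 h and day 1 at 87.4% of the called falls and 84.7% of the called rises, against 53.1% of all regions. The called sets were chosen from the end points, so these are descriptions.

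Tests of each step made fewer calls and depended on the 16 h pair. From 8 h to 16 h, limma called 2327 regions lower (5.51%) and 1449 higher (3.43%), and from 16 h to day 1 it called 465 lower (1.1%) and 34 higher (0.0805%). Without the deeper 16 h library, the first step had 4663 lower and 6283 higher and the second 2563 and 174. Without the shallower, the first step had 1890 lower and 451 higher and the second 3027 and 2149. Which step held more rises therefore turned with the 16 h library used. Some regions peaked between the end points, with both 16 h libraries above the other 4 at 4099 regions (9.71%) and below them at 1436 (3.40%).

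The direction of change differed by PTF occupancy. The authors' peak calls for OCT4, SOX2 and ESRRB put 8841 regions in a class bound before Dox, 7038 in a class bound by PTFs only after Dox (ectopic), and 26524 in neither. Regions bound before Dox had a median change of -0.94, with 52.2% of tested regions called lower and 0.976% higher. Ectopic regions had a median of 0.60, with 4.18% lower and 32.1% higher, and regions without PTFs had 0.08, with 15.9% and 7.70%. On 20 of 20 chromosomes with more than 1 region, the median was negative for regions bound before Dox (-1.08 to -0.76) and positive for ectopic regions (0.48 to 0.82). Leaving out the shallower day 1 library, the calls among regions bound before Dox were 16.8% lower and 0.046% higher, and among ectopic regions 0.613% and 7.25%. Without the deeper 8 h library they were 18.9% and 0.195%, and 0.442% and 13.2%, and without the shallower 8 h library 29.1% and 0.0919%, and 0.998% and 15.7%. With centred libraries, regions without PTFs had 12.5% lower and 13.2% higher, so that their balance of calls turned with the scaling.

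SOX17 occupancy, from the authors' peaks over the time course, went with rises. The 18861 SOX17-bound regions had a median change of 0.31 and the other 23542 had -0.42, with 17.4% and 4.77% called higher and 9.29% and 31.1% called lower. Without the shallower day 1 library, 2.97% of SOX17-bound regions were called higher and 9.24% of the others lower. Those shares were 6.09% and 11.3% without the deeper 8 h library and 7.53% and 15.3% without the shallower. With centred libraries, SOX17-bound regions had 6.81% lower and 24.95% higher and the others 25.6% and 8.26%. SOX17 and PTF classes were then crossed. Regions bound by PTFs before Dox and without SOX17 had a median of -1.37, with 73.4% of 4371 tested called lower. Regions bound by both PTFs before Dox and SOX17 had -0.52, with 30.7% lower. Ectopic regions with SOX17 had 0.75, with 37.5% of 5498 called higher, and ectopic regions without SOX17 had 0.08, with 12.6% higher.

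**Figure D3:**
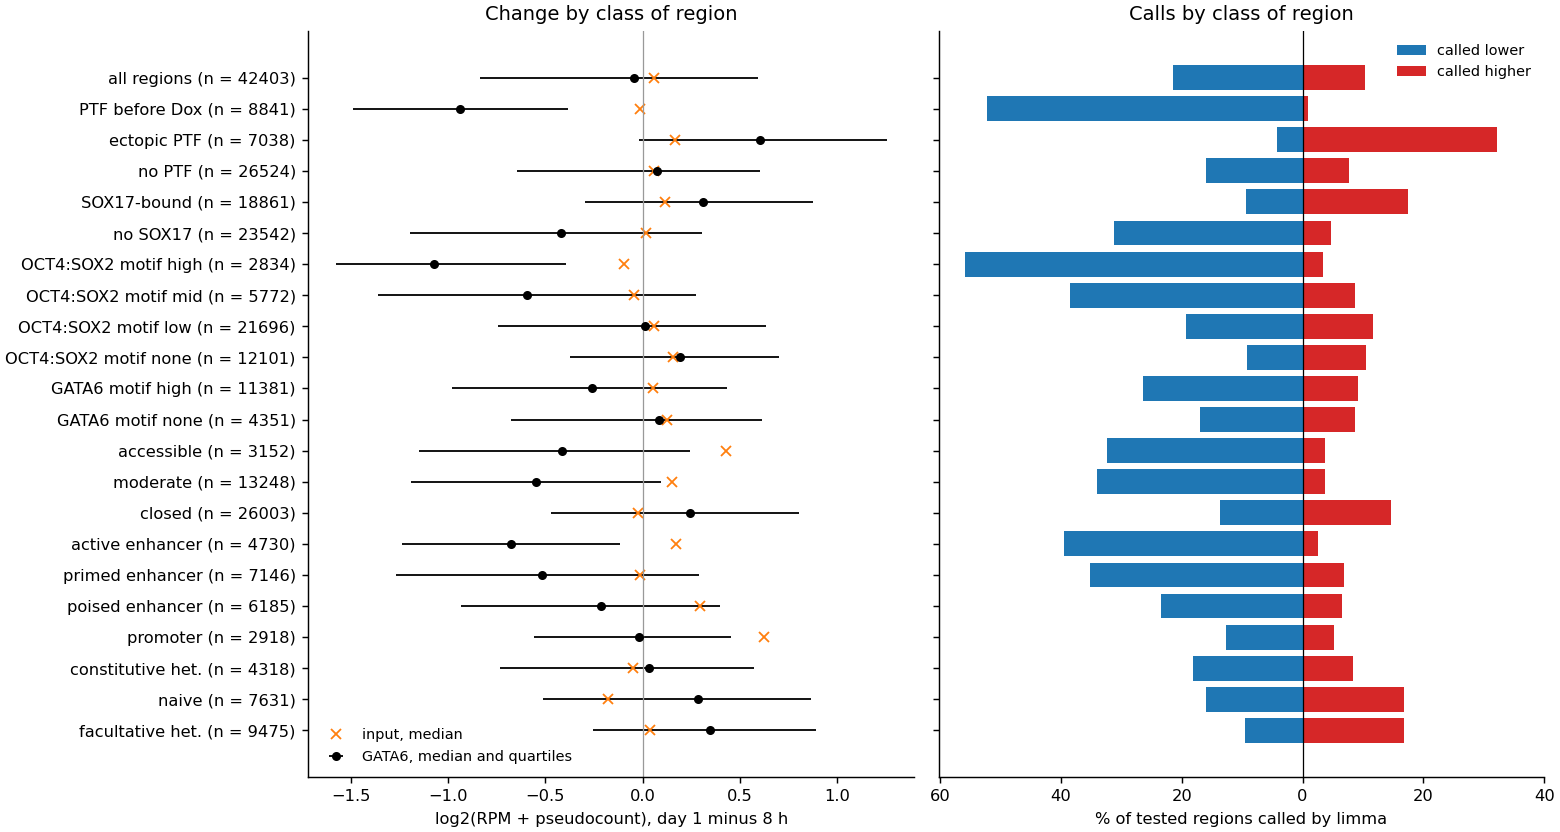
Left, median (point) and quartiles (bar) of the GATA6 change by class of region, with the median input change as a cross. Right, percent of tested regions called lower (left of 0) and higher (right of 0) by limma. Regions with PTFs before Dox (-0.94) and with a high OCT4:SOX2 motif score (-1.07) lie lowest, and ectopic PTF regions (0.60) highest.

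Motifs in the DNA of the regions were read without PTF peaks. Regions in the authors' high class of OCT4:SOX2 motif score, the composite element of ES cell enhancers, had a median change of -1.07, with 55.9% called lower and 3.46% higher. The share called lower was 17.2% without the shallower day 1 library, 21.9% without the deeper 8 h library and 31.0% without the shallower. The mid class had -0.60, the low class 0.01, and regions with no such motif 0.19, with 9.23% lower and 10.5% higher. Among regions where no PTF peak was called, the high class had -0.99 and 47.3% lower, against 0.19 and 8.98% with no motif. These high-class regions had median SOX2 signals of 0.998 RPM at 8 h and 0.652 at day 1, against 0.442 and 0.518 with no motif. The OCT4 median was likewise higher at 8 h in the high class and fell by day 1. Regions without a called PTF peak were thus not free of PTF signal, and a motif effect apart from PTF binding was not tested. The ESRRB motif had -0.62 in its high class and 0.07 with no motif. The GATA6 motif showed a smaller difference, with -0.26 in the high class and 0.08 with none, and the SOX17 motif classes spanned -0.13 to 0.02.

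Short words within 200 bases centred on the summit, searched on both strands, are given next as shares of regions. The octamer word ATGCAAAT, bound by POU factors such as OCT4, was found in 2.99% of all regions, in 5.87% of called falls and in 1.51% of called rises. The ESRRB word TCAAGGTCA was found in 1.16%, 2.69% and 0.342%. The forkhead word TGTTTAC, the site of FOXA factors, had 6.14%, 3.73% and 7.97%. The GATA word AGATAAG was found in 27.8%, 31.9% and 24.2%, and TGATAAG in 14.5%, 13.2% and 15.1%. The median change was -0.20 with AGATAAG and 0.02 without it.

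Composite elements were rare as exact words. The canonical SOX2:OCT4 element, which has 1 base more between its half-sites than the compressed SOX17:OCT4 element, was found in 58 regions, of which 39 were called lower (67.2%) and 0 higher, against 21.4% and 10.4% of all regions. The compressed element was found in 32 regions, of which 3 were called lower (9.38%) and 11 higher (34.4%). Both can overlap the octamer. The words were shortened after longer forms had matched only 2 and 9 regions, so these counts were chosen with the data in view. The word CAAAGTCCA of HNF4 was found in 0.509% of all regions, 0.320% of falls and 0.479% of rises. The SOX word ACAAAG was found in 28.9%, 33.3% and 26.7%. The AP-1 word TGANTCA was found in 10.6%, 9.12% and 9.18%. The TEAD word ACATTCC was found in 7.67%, 7.29% and 5.75%. The E-box CACGTG was found in 2.63%, 2.03% and 2.19%.

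By chromatin before Dox, accessible regions fell more often and closed regions less often than all regions. The 3152 accessible regions had a median GATA6 change of -0.42 and the 13248 moderately accessible regions -0.55, with 32.4% and 34.1% called lower. The 26003 closed regions had 0.24, with 13.7% lower and 14.6% higher, and ectopic PTF regions that were closed had 0.78, with 38.5% higher. By the authors' histone states, active enhancers had -0.68, primed enhancers -0.52, poised enhancers -0.21 and promoters -0.02. Constitutive heterochromatin had 0.03, unmarked (naive) regions 0.28 and facultative heterochromatin, the Polycomb-marked state, 0.35. Ectopic PTF regions in facultative heterochromatin had 0.99, and 46.7% of them were called higher. Input had a median change of 0.62 at promoters, 0.43 at accessible regions and -0.02 at closed regions. As a ratio to input, the accessible minus closed difference in median GATA6 change was -1.09, against -0.66 without it, and the difference between regions with PTFs before Dox and regions without PTFs was -0.90, against -1.02.

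The level of binding moved with the change. The quintile of regions with the lowest 8 h RPM had a median change of 0.57 and the quintile with the highest had -0.81. The 8 h value is part of the change, so this is a description. The class differences were therefore also taken within deciles of the mean of 8 h and day 1. The difference between regions with PTFs before Dox and regions without PTFs was -0.71, against -1.02 over all levels. The SOX17-bound minus other difference was 1.05, against 0.73. The accessible minus closed difference was -0.29, against -0.66, and the difference between high and no GATA6 motif was -0.043, against -0.34. Over single deciles, the PTF difference ran from -1.45 to 0.13 and the accessibility difference from -0.62 to 0.15, while the SOX17 difference lay between 0.15 and 1.24.

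Signals of OCT4, SOX2, ESRRB and SOX17 were then read in the same regions. In regions called lower for GATA6, the pooled values from 8 h to day 1 had median log2 changes of -0.72 for OCT4, -0.96 for SOX2, -0.57 for ESRRB and -0.01 for SOX17, with -0.09 for input. In regions called higher, the medians were 1.54 for SOX17, 1.29 for OCT4, 0.91 for SOX2 and 0.27 for ESRRB, with 0.22 for input. SOX17 at day 1 was at least 2-fold above 8 h at 73.1% of the called rises and at 7.42% of the called falls, against 29.2% of all regions, over which its median change was 0.52. These columns were read as pooled values, and no test over their libraries was run.

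**Figure D4:**
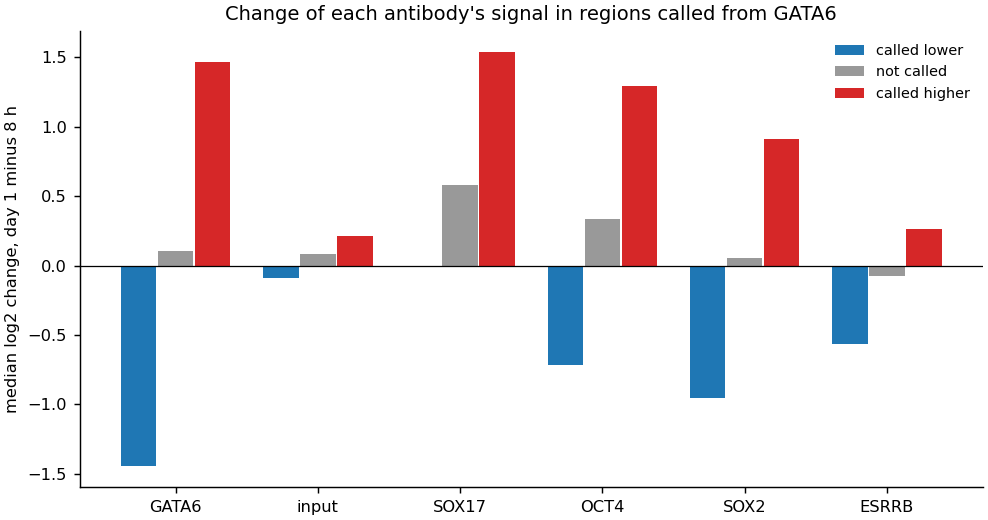
Bars, starting at 0, show the median log2 change of RPM from 8 h to day 1 for each antibody and for input in regions called lower, not called and called higher for GATA6. The GATA6 bars (-1.45 and 1.47) are set by the choice of regions. OCT4 and SOX2 are negative in the falls (-0.72 and -0.96) and positive in the rises (1.29 and 0.91), and SOX17 differs chiefly in the rises (1.54).

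The 6 largest rises lay near Pja1 (a ubiquitin ligase gene), Fabp2 (a fatty acid binding protein gene), Akr1c19, Frmd4a, Rftn1 and Arhgap29. All 6 were closed before Dox, ectopic for PTFs and SOX17-bound. They were chosen as the largest rises without overlap between the libraries of 8 h and day 1. That choice used the tested libraries, so their calls and p-values only describe them. The region 73392 bases upstream of Pja1 (chrX:99543893-99544914, intergenic) had 0.259 and 0.262 RPM in the 8 h libraries, 1.38 and 3.51 at 16 h, and 5.56 and 7.57 at day 1. The 16 h libraries lay between those of 8 h and day 1, and the change was 3.96 ± 0.42 (SE; limma adjusted p = 5.86e-05). At the intronic Frmd4a region (chr2:4185554-4186125, 32970 bases downstream of the start) the values were 0.302 and 0.175, then 1.95 and 2.93, then 3.87 and 3.92 RPM. Here too every later library lay above every earlier one, with a change of 3.34 ± 0.39 (limma adjusted p = 5.86e-05).

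The Akr1c19 region was the only promoter among these 6, with its summit 107 bases upstream of the start (chr13:4233060-4234012). Akr1c19 encodes an aldo-keto reductase. It had 0.619 and 0.785 RPM at 8 h, 2.64 and 9.84 at 16 h, and 10.5 and 10.3 at day 1, a change of 3.61 ± 0.44 (limma adjusted p = 6.76e-05). The shallower 16 h library was already near the day 1 level, and the deeper was not. SOX17 at this promoter was 0.269 RPM at 8 h and 4.44 at day 1, and OCT4 was 0.369 and 3.84. The Arhgap29 region (chr3:121939204-121940716, intergenic, 12870 bases upstream) rose from 0.763 and 1.05 RPM through 1.60 and 6.09 to 7.88 and 12.05, by 3.22 ± 0.45 (limma adjusted p = 0.000133). The intronic Rftn1 region changed by 3.28 ± 0.43.

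The 6 largest falls lay near Rnls (the renalase gene), Foxc1 (a forkhead factor of mesoderm), Ccdc186, Kcnb2 (a potassium channel gene), 4931417E11Rik and Yipf7. None was SOX17-bound, 4 were closed with no PTF peak called, and 2, near Foxc1 and Yipf7, were moderately accessible with PTFs before Dox. These falls were chosen by the same rule, without overlap between 8 h and day 1, so their calls and p-values only describe them. The intronic Rnls region (chr19:33382186-33383148, 9675 bases downstream of the start) had 16.2 and 11.4 RPM at 8 h, 2.75 and 2.11 at 16 h, and 0.712 and 0.757 at day 1. Every library of a later time lay below every library of the time before, with a change of -3.93 ± 0.35 (limma adjusted p = 1.06e-05). The primed enhancer near Yipf7 (chr5:69488871-69489923, intergenic) had 13.8 and 13.003 RPM, then 4.93 and 2.34, then 1.246 and 0.757, a change of -3.57 ± 0.37 (limma adjusted p = 5.86e-05). OCT4 at that enhancer was 12.7 RPM at 8 h and 1.95 at day 1, and SOX2 was 11.2 and 2.63. The 4 falls in the class without a PTF peak also had OCT4 signal at 8 h. It was 4.56 RPM near Rnls, 2.21 near Ccdc186, 3.75 near Kcnb2 and 4.96 near 4931417E11Rik, and at day 1 0.61, 0.28, 0.55 and 0.94. Over all regions the OCT4 medians were 0.74 and 0.96 RPM. The falls near Foxc1, Ccdc186, Kcnb2 and 4931417E11Rik changed by -3.85 to -3.68.

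Around genes of the PrE programme, regions within 50 kb of the start sites were counted, and the highest region of each gene was read. Any further region named was chosen after its values were seen. For 7 PrE transcription factor genes, 22 of 65 tested regions were called higher (33.8%) and 2 lower (3.08%), against 10.4% and 21.4% of all regions, with a median change of 0.83 against -0.04. The count higher was smaller in each fit without a library of 8 h or day 1, as was the count over all regions. With each library centred it was 29 of 65 (44.6%), where all regions had 6615 of 42234. The 22 include 2 rises on Gata6 exons, whose reads cannot be assigned to either the gene or the cassette, as described below. The genes of this list were chosen for their known roles.

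Sox17, which encodes the endoderm SOX factor, had 2 regions called higher of 6. Its highest region, 40288 bases upstream (chr1:4536608-4538990), had 5.14 and 5.93 RPM at 8 h, 11.0 and 17.9 at 16 h, and 17.3 and 17.6 at day 1. Both later times lay above 8 h, and the change was 1.63 ± 0.30 (limma adjusted p = 0.000623). Hnf4a, encoding a nuclear receptor of endoderm, had a region at 0.475 and 0.960 RPM at 8 h, 1.15 and 3.98 at 16 h, and 3.60 and 6.13 at day 1. It lay 14456 bases from the start of R3hdml, its nearest gene, and changed by 2.52 ± 0.47 (limma adjusted p = 0.000787).

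Foxa2, encoding the forkhead pioneer factor of endoderm, had 5 of 16 regions called higher and 1 lower. The largest rise there, 14725 bases upstream, went from 0.346 and 0.611 RPM through 0.917 and 1.64 to 3.51 and 3.30, by 2.50 ± 0.41 (limma adjusted p = 0.000294). Its highest region did not pass the test, with 7.82 and 5.76 RPM at 8 h and 7.21 and 9.57 at day 1. Gata4, the GATA factor that acts beside GATA6 in PrE, had 2 of 13 called higher, and its highest region had 13.2 and 13.2 RPM at 8 h, 16.5 and 39.6 at 16 h, and 23.7 and 21.8 at day 1 (limma adjusted p = 0.0685). The shallower 16 h library stood highest there. Gata6 itself had 4 of 10 called higher, while its promoter region had 11.0 and 12.04 RPM at 8 h and 11.4 and 7.99 at day 1 (limma adjusted p = 0.551). The cassette carries the Gata6 coding sequence, so reads on Gata6 exons, where 2 of these 4 rises lie, cannot be assigned to either copy. At the exonic region 2404 bases downstream of the start, GATA6 had 1.12 and 1.57 RPM at 8 h and 3.92 and 7.30 at day 1, and input went from 0.914 to 7.55 RPM, a larger fold in input than in GATA6. The GATA6 antibody gave 8.49 RPM there before Dox, above the pooled day 1 value of 5.61.

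The Sox7 locus changed in both directions within a short stretch. Sox7 encodes another endoderm SOX factor. The region 7014 bases upstream (chr14:63936168-63937095) was bound by PTFs before Dox and not by SOX17, and had 14.9 and 12.9 RPM at 8 h, 12.8 and 8.55 at 16 h, and 3.38 and 2.82 at day 1. It fell by 2.11 on the log2 scale (SE 0.31; limma adjusted p = 0.000151), and both day 1 libraries lay below all others. The region 4936 bases upstream, ectopic for PTFs and SOX17-bound, had 0.965 and 0.698 RPM, then 1.49 and 1.87, then 2.22 and 2.82, a change of 1.43 ± 0.38 (limma adjusted p = 0.00757), called in 4 of 6 fits that left out a library. At day 1 the library values of these neighbouring regions overlapped. The falling region holds a GATA6 motif (first capitals) close to an OCT4:SOX2 motif (second capitals), shown because both motifs lie in 1 region that PTFs held before Dox.
Fall at Sox7, chr14:63936637-63936703, plus strand: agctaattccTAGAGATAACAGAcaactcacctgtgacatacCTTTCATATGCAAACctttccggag

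Genes of the PrE surface and matrix had calls in both directions. Of 127 tested regions around 14 of 15 genes, 17 were called higher (13.4%) and 12 lower (9.45%), against 10.4% and 21.4% of all regions, with a median change of 0.14. The share higher was thus near that of all regions. Afp had no region. Both counts were smaller in each fit without a library of 8 h or day 1, as were those over all regions. They were larger in each fit without a library of 16 h, again as over all regions. With centred libraries 28 were called higher (22.0%) and 8 lower (6.30%), where all regions had 6615 and 7285 of 42234. Cubn, encoding the endocytic receptor cubilin, had 4 of 10 regions called higher, and its highest region had 7.30 and 8.38 RPM at 8 h, 6.99 and 14.4 at 16 h, and 15.1 and 21.7 at day 1, a change of 1.19 ± 0.33 (limma adjusted p = 0.0095), called in 4 of 6 fits that left out a library. Laminin genes differed. The highest Lama1 region had 23.5 and 20.1 RPM at 8 h and 18.1 and 18.5 at day 1 (limma adjusted p = 0.494), while another, 11593 bases upstream, had 2.996 and 3.32 RPM at 8 h, 3.09 and 10.9 at 16 h, and 13.5 and 17.97 at day 1, a change of 2.24 ± 0.41 (limma adjusted p = 0.000649). Lamc1 had 5 of 20 regions called lower and 0 higher, and its intronic region had 36.1 and 35.1 RPM at 8 h, 29.9 and 29.2 at 16 h, and 17.8 and 14.2 at day 1, a change of -1.16 ± 0.25 (limma adjusted p = 0.00184). The highest Lamc1 region, 44256 bases upstream, had 58.0 and 51.9 RPM at 8 h and 34.7 and 35.9 at day 1 (limma adjusted p = 0.0403), called in 2 of 6 fits that left out a library. The Sparc region 11128 bases upstream, at a matrix protein gene, rose from 0.317 and 0.175 RPM through 0.802 and 1.52 to 1.82 and 4.06, by 2.83 ± 0.45 (limma adjusted p = 0.000276), while the highest Sparc region did not pass the test (limma adjusted p = 0.844). Pdgfra, the receptor gene used as a PrE surface marker, had 1 of 11 called higher, and its highest region had 33.4 and 25.05 RPM at 8 h and 23.9 and 19.0 at day 1 (limma adjusted p = 0.219).

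**Figure D5:**
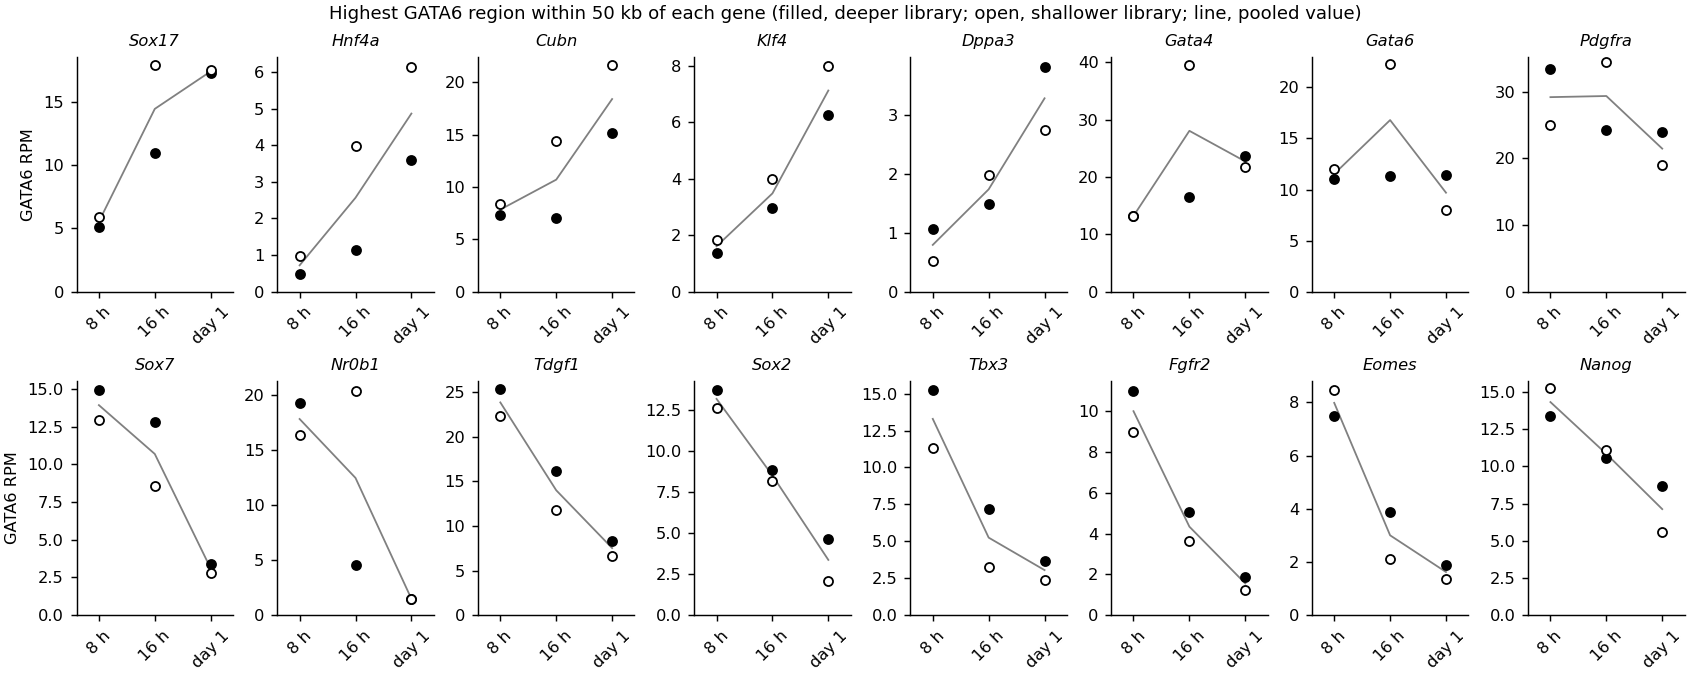
GATA6 RPM in the highest region within 50 kb of 16 listed genes, from axes that start at 0, with the deeper library filled, the shallower open and the pooled value as a line. Sox17, Hnf4a, Cubn, Klf4 and Dppa3 lie higher at day 1, and Sox7, Nr0b1, Tdgf1, Sox2, Tbx3, Fgfr2, Eomes and Nanog lower, while Gata4, Gata6 and Pdgfra did not pass the test. The region shown for Nanog is a promoter region whose nearest gene is Slc2a3, 102 bases from its start. Its call was lost in some fits that left out a library.

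Around 15 pluripotency regulators, 32 of 109 tested regions were called lower (29.4%) and 9 higher (8.26%), against 21.4% and 10.4% of all regions, with a median change of -0.35 against -0.04. PTFs occupied 45 of their 110 regions before Dox (40.9%). Both counts were smaller in each fit without a library of 8 h or day 1, as were those over all regions. With only the libraries of 8 h and day 1 they were 39 and 16 of 109 (35.8% and 14.7%), where all regions had 11663 and 6513 of 42234. With centred libraries they were 21 and 15 (19.3% and 13.8%), where all regions had 7285 and 6615 of 42234. The excess of falls over all regions was thus smaller with centred libraries.

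Nr0b1, encoding a nuclear receptor co-repressor expressed in ES cells, had the largest fall of the listed loci. Its exonic region (chrX:86191555-86193083) had 19.3 and 16.4 RPM at 8 h, 4.58 and 20.4 at 16 h, and 1.47 and 1.51 at day 1. The shallower 16 h library lay above both 8 h libraries and the deeper far below them. The change was -3.44 ± 0.45 (limma adjusted p = 9.29e-05), and it was called in 6 of 6 fits that left out a library. A further Nr0b1 region in an exon, 3743 bases from the start, had 4.25 and 3.58 RPM, then 1.26 and 5.15, then 0.133 and 0.344, with the same split of the 16 h pair. The SOX17 antibody at the first of these regions gave 16.9 RPM at 8 h, 7.6 at 16 h and 1.28 at day 1, in a region without a SOX17 class.

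Sox2 had 3 of 4 regions called lower. The region 4047 bases upstream of this core pluripotency gene had 13.7 and 12.7 RPM at 8 h, 8.82 and 8.20 at 16 h, and 4.67 and 2.07 at day 1, a change of -2.02 ± 0.34 (limma adjusted p = 0.000383). Klf2, a Krüppel-like factor gene of naive pluripotency, had 6 of 7 called lower, with -2.06 ± 0.38 at the region 2776 bases upstream (limma adjusted p = 0.000652) and -0.72 ± 0.26 at its highest region (limma adjusted p = 0.0373), the latter called in 2 of 6 fits that left out a library. Esrrb had 5 called lower and 1 higher of 13, Nanog 3 lower of 8, and Pou5f1, which encodes OCT4, 1 lower of 7. Tdgf1, encoding the NODAL co-receptor, had a region at 25.3 and 22.3 RPM at 8 h, 16.2 and 11.8 at 16 h, and 8.36 and 6.68 at day 1, a change of -1.65 ± 0.28 (limma adjusted p = 0.000394). At these Sox2 and Tdgf1 regions every library of a later time lay below every library of the time before.

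Klf4, a naive pluripotency factor gene, had 2 of 11 regions called higher and 0 lower, with a median change of 0.26 over the 11. Its highest region, 10507 bases upstream, had 1.38 and 1.83 RPM at 8 h, 2.98 and 3.98 at 16 h, and 6.27 and 7.99 at day 1, a change of 2.04 ± 0.34 (limma adjusted p = 0.000352). Klf5 had 1 of 12 called higher, and its highest region could not be split into libraries, so that it has pooled values only (36.6, 32.7 and 27.1 RPM). Tbx3, encoding a T-box factor of both pluripotent cells and endoderm, changed in both directions. Its intronic region 9041 bases downstream had 15.2 and 11.3 RPM at 8 h, 7.22 and 3.28 at 16 h, and 3.69 and 2.41 at day 1, a change of -2.08 ± 0.36 (limma adjusted p = 0.000492). Its upstream region had 0.907 and 0.698, then 2.18 and 6.09, then 5.38 and 4.89 RPM, a change of 2.46 ± 0.41 (limma adjusted p = 0.000354). In all, Tbx3 had 4 regions called lower and 2 higher of 13.

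FGF signalling genes had falls and no rise. FGF signalling through ERK favours PrE over epiblast, and SPRY, DUSP and ETV proteins are its feedback inhibitors and transcriptional effectors. Of 46 tested regions around 8 genes, 17 were called lower (37.0%) and 0 higher, against 21.4% and 10.4% of all regions, with a median change of -0.30 against -0.04. PTFs occupied 21 of their 47 regions before Dox (44.7%), the class of which 52.2% were called lower. Fits without a library of 8 h or day 1, which leave 1 library at that time, made fewer calls in this list and over all regions. The excess of falls over all regions was not kept in each of them, and was absent without the shallower day 1 library. With centred libraries 14 regions were called lower (30.4%), where all regions had 7285 of 42234. There was 1 rise at limma-voom, with centred libraries and without either 16 h library. Fgfr2, the receptor gene, had 1 of 8 regions called lower, with a median change of 0.22 over the 8. That region, intronic and 1395 bases downstream of the start, had 11.0 and 8.99 RPM at 8 h, 5.04 and 3.63 at 16 h, and 1.87 and 1.24 at day 1. The times did not overlap, and the change was -2.58 ± 0.34 (limma adjusted p = 9.93e-05). Etv4 had 3 of 3 regions called lower, Spry4 and Dusp6 4 of 8 each, Etv5 3 of 8 and Spry2 2 of 6, while Fgf4 and Fgfr1 had none.

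Regulators of other lineages had few regions. Pax6, Sox1, Myod1 and Alb had none, Hbb-b1 had no start site in the annotation, and the other 5 had 4 of 16 called lower (25%) and 2 higher (12.5%), near the 21.4% and 10.4% of all regions. Fits without a library of 8 h or day 1 made fewer calls here, as over all regions, and fits without a library of 16 h made more. Eomes, a T-box gene of mesendoderm and trophoblast, had its highest region, 2171 bases upstream of Golga4, at 7.50 and 8.47 RPM at 8 h, 3.90 and 2.11 at 16 h, and 1.87 and 1.38 at day 1, a change of -2.20 ± 0.36 (limma adjusted p = 0.000304).

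Falls and rises were also counted by gene. Of 16664 protein-coding genes with a region within 50 kb, 5818 had called falls only, 2629 had rises only, 1583 had both and 6634 had neither. A region called the other way lay within 50 kb of 18.1% of the called falls and 33.5% of the called rises. Called falls numbered 9057 and called rises 4380, so a fall was the more common neighbour to find. The same shares for regions not called were not taken, so no excess can be read from these. Of genes picked after their values were seen, Ubash3b had 10 of 14 regions called higher and 0 lower, Rnf220 had 9 of 18 and Usp7 9 of 12 called lower and 0 higher, and Prickle2 had 4 lower and 5 higher of 16.

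Levels at other times were read from the deposited columns, of which the one before Dox is a single library. The regions called lower had median GATA6 levels of 0.49 RPM before Dox, 0.92 at day 2 and 0.65 at day 4, and XEN cells, a line of extra-embryonic endoderm, had 0.50. The regions called higher also had 0.49 RPM before Dox, and their levels were 2.46 at day 2 and 3.14 at day 4. In XEN cells they had 2.32 RPM. Regions not called had 1.07, 1.42 and 1.67 RPM in the same later columns. The authors' GATA6 clusters were made by k-means on all time points, these included, so their calls are no separate measure, and 45.5% of tested regions of the transient cluster were called lower and 0.871% of the late cluster.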

How the data were processed

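GATA6 ChIP-seq libraries (2 each at 8 h, 16 h and day 1) and matched inputs were analysed. The authors trimmed reads with cutadapt, aligned them to mm10 with bowtie2, kept high mapping quality, removed UMI duplicates, called peaks with MACS2, counted reads per region with bamsignals and scaled them to library size. The deposited values are RPM, the mean of the pooled libraries (1 library for GATA6 before Dox). Motif scores and classes are the authors' own, deposited in the same table.

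Values were split into whole reads of the 2 pooled libraries, and 169 regions without a single solution in every GATA6 column were not tested. No deposited value lies under 1 read per library. limma 3.58.1 (R 4.3.3; trend and robust; two-sided, 6 libraries, Benjamini-Hochberg) was run on log2(RPM + 0.168), the pseudocount being percentile 5 of the non-zero GATA6 values, which understates changes of low regions. The planned test needed library values and was run because they could be recovered. Splitting and test were tested on simulated data. Regions were assigned to GENCODE M21 protein-coding genes (promoter within 1000 bases, loci within 50 kb). The regions are peaks of these and other libraries, so that a region found at a single time had to be high there. Named regions are the 6 largest rises and falls with at least 2 RPM at any of the 3 times and no overlap between 8 h and day 1 (1 per nearest gene), and the highest region per listed gene. Members and lists were chosen with earlier results of these data known. Region coordinates are as deposited.

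Of 105 columns, 14 hold per-sample values outside the mapped samples, 4 hold siRNA values and others the authors' siRNA comparison, and none of these was used. Calculations used Python 3.11.15, numpy 2.4.6, pandas 2.3.3 and matplotlib 3.10.9. A few items are not reported here.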

Additional observations from a re-analysis of the deposited data

How the results depend on the processing

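No paired analysis was possible because the recovered libraries carry no replicate number. The 4 class differences and the median change kept their sign under the alternatives run over all regions, while the PTF and accessibility differences turned positive in single deciles (up to 0.13 and 0.15). With centred libraries, the calls among regions without PTFs turned from more falls to more rises, and leaving out the shallower 16 h library moved the larger count of rises from the first step to the second. The count of regions at least 2-fold lower was 2753 with a pseudocount 10 times larger and 13577 at 1.5-fold, and the count higher was 881 and 10717, and 8821 with input subtracted. The median change was -0.20 as a ratio to input, -0.29 with at least 1 RPM required, -0.11 as a mean, and -0.12 to -0.015 with each library left out. limma falls ran from 2595 to 11663 and rises from 665 to 6585 with each library left out, and rises were 6571 with limma-voom and 6615 with centred libraries, both about 1.5 times the reported count. The accessible minus closed difference was -0.29 over deciles of level, -1.09 as a ratio to input and -0.35 with the larger pseudocount. In the same order without the ratio, the GATA6 motif difference was -0.043 and -0.16, the SOX17 difference 1.05 and 0.33, and the PTF difference -0.71 and -0.64. The cause of these moves was not tested. Subtracting 1 read per library, an alternative chosen after seeing the data, gave 8563 falls and 3819 rises. The lowest depth was 8535476 reads, with a median of 11 to 13 reads per region at 16 h, which limits the precision of the middle step.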

Other observations

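Chromosome 8 differed from the other autosomes in both antibody and input columns. Its 2199 regions had a median GATA6 change of 0.17 from 8 h to day 1 and a median input change of 0.25, the highest of the 19 autosomes in each. Chromosome 12 had the lowest GATA6 median, -0.26, with 0.01 in input. The values were noticed in the data and were not tested.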
